A study of Mus musculus with 36 samples.

Results

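The 8 genes described here are *Nr1i3*, which encodes the constitutive androstane receptor (CAR), *Por*, and the cytochrome P450 genes *Cyp2b9*, *Cyp2b10*, *Cyp2b13*, *Cyp2a4*, *Cyp2a5* and *Cyp2a22*. They were taken by gene name from a table of read counts for 54532 genes in mouse liver, and were chosen by the difference between genotypes and by the spread between mice in these same data. For these genes both measures are therefore given as descriptions, and p-values are given for sampling time. All 8 had at least 100 counts in sum over the 36 libraries, as did 17994 genes in all, but *Cyp2b13* reached this sum only through 1 library.

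The livers came from male mice of 2 to 3 months, kept in 12 h of light and 12 h of darkness with chow and water freely given. THRBWT mice were heterozygous (THRB+/-) and THRBKO mice homozygous (THRB-/-) for a *Thrb* allele (B6.129S1-Thrbtm1Df/J) bred on the C57Bl/6NCrl background, so the controls carry the altered allele too, and the alteration is present in every tissue and not in liver alone. Sampling began 2 h after lights on (zeitgeber time, ZT2) and went on every 4 h up to ZT22, with 3 mice per genotype at each time and 18 per genotype in all. The labels name the mice of a group a, b and c.

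Total counts per library ranged from 29063273 to 42530551. *Thrb* was counted at 24.3 to 38.5 CPM (counts scaled to a common library size by TMM) in THRBWT and at 26.2 to 37.7 CPM in THRBKO livers. Counts per gene do not separate the altered transcript from the intact one, so this level checks no label. *Dio1*, a deiodinase gene induced by thyroid hormone, ranged from 52.1 to 151 CPM in THRBWT and from 31.6 to 67.9 CPM in THRBKO livers. The hepatocyte markers *Alb*, *Apoa1*, *Ttr*, *Tat* and *Hnf4a* were all present, with summed levels that overlapped between genotypes. In whole liver, fewer cells of a type and less RNA per cell cannot be told apart. A total of 3 THRBKO libraries stood apart in these genes: mouse a at ZT10, mouse b at ZT22 and mouse c at ZT14 held the highest counts of *Cyp2b13*, *Cyp2b9* and *Cyp2a4* of all libraries. They were singled out after these values were seen, and results that rest on them are given with and without them. Among THRBWT mice, mouse b at ZT6 was highest in *Cyp2b9* and *Cyp2b10*.

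CAR is a nuclear receptor of hepatocytes that a chaperone complex holds in the cytoplasm. Drugs and other foreign compounds release it to the nucleus, where it pairs with the retinoid X receptor and switches on genes of drug metabolism, with *Cyp2b10* as its best known target in mouse liver. *Por* encodes the cytochrome P450 oxidoreductase, which passes electrons from NADPH to the P450 enzymes of the endoplasmic reticulum. The *Cyp2a5* enzyme hydroxylates coumarin and nicotine, and its close copy *Cyp2a4* hydroxylates steroids. *Cyp2b9*, *Cyp2b13* and *Cyp2a4* are known for higher levels in female than in male mouse liver, a difference set by the pattern of growth hormone secretion. The circadian PAR bZIP factors DBP, TEF and HLF are known regulators of *Nr1i3*, *Por*, *Cyp2a4* and *Cyp2a5*.

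The P450 genes lie in a single cluster on chromosome 7 of GRCm38. The genes described here begin with *Cyp2b10* at chr7:25897620-25926624, *Cyp2b13* at chr7:26061497-26096197 and *Cyp2b9* at chr7:26173411-26210661. Next come *Cyp2a4* at chr7:26307169-26315088 and *Cyp2a5* at chr7:26835305-26843548, all on the plus strand. The last of them is *Cyp2a22* at chr7:26931631-26939384 on the minus strand, and the cluster holds other genes that are not placed here. *Nr1i3* lies at chr1:171213970-171220701 and *Por* at chr5:135670033-135735326, both on the plus strand.

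The promoters of *Cyp2b9* and *Cyp2b13*, and those of *Cyp2a4* and *Cyp2a5*, are shown because each pair is nearly the same in sequence while its transcripts were counted at very different levels. The letters are the bases before the start site that RefSeq gives, which for *Cyp2a4* and *Cyp2a5* lies inside the gene bounds of the deposited table given above. They are on the plus strand of GRCm38.p6 (chr7:26173159-26173408, chr7:26061245-26061494, chr7:26306943-26307191 and chr7:26835089-26835337), and capitals mark the positions at which the members of a pair differ.
Cyp2b9: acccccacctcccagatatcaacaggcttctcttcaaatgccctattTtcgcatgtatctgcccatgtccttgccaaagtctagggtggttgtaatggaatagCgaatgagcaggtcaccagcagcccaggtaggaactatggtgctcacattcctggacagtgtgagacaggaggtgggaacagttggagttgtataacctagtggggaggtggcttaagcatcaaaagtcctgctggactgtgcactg
Cyp2b13: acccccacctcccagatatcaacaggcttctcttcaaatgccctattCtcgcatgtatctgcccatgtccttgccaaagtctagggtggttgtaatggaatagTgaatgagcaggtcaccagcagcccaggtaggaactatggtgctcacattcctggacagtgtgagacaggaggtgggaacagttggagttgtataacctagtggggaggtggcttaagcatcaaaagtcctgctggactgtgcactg
Cyp2a4: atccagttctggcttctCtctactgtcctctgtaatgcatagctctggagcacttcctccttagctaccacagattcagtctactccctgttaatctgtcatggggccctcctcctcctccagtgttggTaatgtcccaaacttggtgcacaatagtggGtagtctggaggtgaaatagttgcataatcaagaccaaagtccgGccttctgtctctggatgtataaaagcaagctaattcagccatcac
Cyp2a5: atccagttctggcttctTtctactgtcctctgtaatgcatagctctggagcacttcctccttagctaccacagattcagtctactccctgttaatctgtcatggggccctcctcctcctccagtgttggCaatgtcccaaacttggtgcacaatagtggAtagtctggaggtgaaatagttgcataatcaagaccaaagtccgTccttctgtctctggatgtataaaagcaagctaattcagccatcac

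The *Cyp2b9* and *Cyp2b13* promoters were the same at 248 of 250 bases (99.2%), and the *Cyp2a4* and *Cyp2a5* promoters at 245 of 249 aligned bases (98.4%). The *Cyp2b10* promoter was the same as either of the other Cyp2b promoters at 186 of 238 aligned bases (78.2%). In windows that run from 250 bases before to 50 bases after the start site, found for all 8 genes, both strands were searched for 5 motifs. The E-box CACGTG was found only in the *Nr1i3* window, from base -244, and in 7.15% of the 32851 windows of all genes. The D-box TTANGTAA of PAR bZIP factors (2.32% of all windows), the STAT5 motif TTCNNNGAA (8.30%), the HNF4 motif CAAAGTCCA (0.475%) and the direct repeat 4 that CAR can bind (0.0152%) were in none of the 8 windows. The D-box and the other motifs were searched as these exact letters, so the windows can still hold related sites.

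Likeness of the transcripts limits how far the copies can be told apart by short reads. The *Cyp2a4* and *Cyp2a5* transcripts were 98.2% identical over 1739 aligned bases, and 11.2% of the 100-base windows of *Cyp2a4* were found letter for letter in *Cyp2a5*. *Cyp2b13* shared 9.29% of its windows with other genes, most of them with the pseudogene *Gm45225* (8.50%), and *Cyp2a22* shared 6.36% with *Cyp2a12*. *Cyp2b9* shared 1.18% with *Cyp2b13*, while *Cyp2b10*, *Nr1i3* and *Por* shared none. How reads with several matches were counted is not given in the sources used here.

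Per length, *Cyp2a5* had the highest level of the 8 genes, with a median over mice of 407 CPM per kb of gene model in THRBWT and 396 in THRBKO livers. *Por* followed with 70.4 and 80.3 CPM per kb, and *Nr1i3* with 10.5 and 11.7. The others were far lower, with 1.64 and 3.93 CPM per kb for *Cyp2b10*, 0.633 and 0.448 for *Cyp2a4*, 0.296 and 0.556 for *Cyp2a22*, and 0.162 and 2.61 for *Cyp2b9*. *Cyp2b13* had a median of 0 in both genotypes. The order of *Cyp2b9* in this list differed between genotypes, from below *Cyp2a4* and *Cyp2a22* in THRBWT to above both in THRBKO livers, and the ranges of the genotypes overlapped for each of the 8 genes.

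To find which of these genes follow the time of day, the 6 sampling times were compared within each genotype. *Por*, *Cyp2a5* and *Nr1i3* varied with sampling time in both genotypes, low early in the light phase and high around the change to darkness. *Cyp2b13* is left out of the counts that follow, since it reached the count minimum only through 1 THRBKO library. Of the other 7 genes, these 3 passed in THRBWT livers, beside 26.4% of all tested genes, and 5 passed in THRBKO livers, beside 24.9% of all genes. The additional genes in THRBKO livers were *Cyp2a4* and *Cyp2a22*, whose p-values moved with single mice, as described for each gene.

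*Por*, the electron donor of the P450 enzymes, was lowest at ZT2, where the THRBWT mice had 118, 142 and 142 CPM and the THRBKO mice 180, 156 and 151 CPM. At ZT10 the THRBWT mice reached 762, 624 and 869 CPM and the THRBKO mice 634, 676 and 730 CPM. At ZT14 the values were 656, 631 and 632 CPM in THRBWT and 823, 761 and 880 CPM in THRBKO livers. The ranges of ZT10 and ZT14 overlapped in THRBWT livers but not in THRBKO livers, where the ZT14 mice were higher. The highest group mean was 5.61-fold the lowest in THRBWT and 5.06-fold in THRBKO livers. Sampling time had an adjusted p of 4.59e-11 in THRBWT and 5.76e-10 in THRBKO livers (quasi-likelihood test of edgeR, adjusted by Benjamini-Hochberg over all tested genes), and it passed in all 14 alternatives run in each genotype. A cosine with a period of 24 h placed the peak at ZT 12.3 ± 0.24 h (SE, n = 18) in THRBWT and 12.7 ± 0.35 h (SE, n = 18) in THRBKO livers.

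*Cyp2a5*, the coumarin hydroxylase gene, also had a wide daily course. At ZT2 it was counted at 200.0, 234 and 262 CPM in THRBWT and at 149, 176 and 186 CPM in THRBKO livers. At ZT6 the THRBWT mice had 502, 1263 and 668 CPM and the THRBKO mice 417, 335 and 393 CPM. At ZT14 the values were 1797, 1439 and 1129 CPM in THRBWT and 1137, 1513 and 1955 CPM in THRBKO livers. All THRBKO mice were below all THRBWT mice at ZT2 and ZT6, and the groups overlapped at the 4 later times. Such a lack of overlap at 2 or more of 6 times was found for 4.15% of all tested genes. The group means ranged 6.27-fold in THRBWT and 9.02-fold in THRBKO livers, with adjusted p-values for sampling time of 7.19e-06 and 5.70e-07 (edgeR). The fitted peak was at ZT 12.8 ± 0.49 h (SE, n = 18) in THRBWT and at 14.3 ± 0.48 h (SE, n = 18) in THRBKO livers. The interaction of genotype and sampling time had an unadjusted p of 0.0169 for *Cyp2a5* and an adjusted p of 1 by the same test.

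*Nr1i3*, the gene of CAR itself, had a shallower course. Its means were lowest at ZT2, with 34.8 ± 5.25 CPM (SD, n = 3) in THRBWT and 33.8 ± 5.00 CPM (SD, n = 3) in THRBKO livers. They were highest at ZT10, with 76.0 ± 22.6 CPM (SD, n = 3) and 75.2 ± 6.43 CPM (SD, n = 3). The 3 THRBWT mice at ZT10 ranged from 52.2 to 97.2 CPM and overlapped with those at ZT6 and ZT14. The ZT2 and ZT10 mice did not overlap in either genotype. Sampling time had an adjusted p of 0.00437 in THRBWT and 0.0131 in THRBKO livers (edgeR). Without the mice of letter b the adjusted p was 0.236 in THRBWT and 0.153 in THRBKO livers, and without those of letter a it was 0.133 in THRBKO livers. Mouse c of THRBKO at ZT14 had 33.1 CPM of *Nr1i3*, while the other mice of its group had 71.2 and 68.9 CPM.

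The difference between genotypes was not found to vary with sampling time for any of the 8 genes, each with an adjusted p of 1 for the interaction. Of all 17994 genes, 0 passed this test (0%) and 484 had an unadjusted p under 0.05, and the likelihood ratio test of DESeq2 also called 0.

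**Figure D1:**
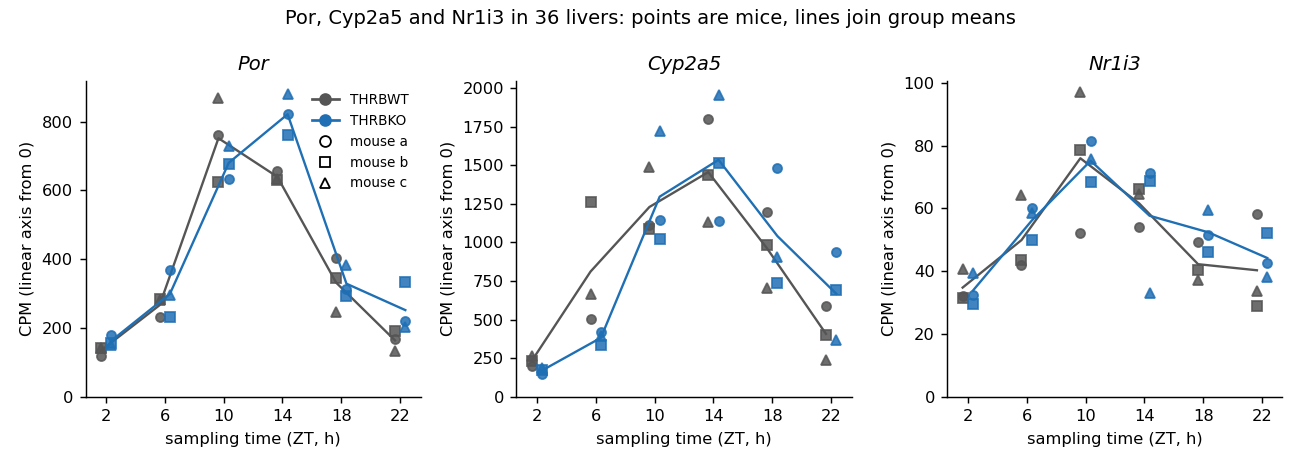
CPM of *Por*, *Cyp2a5* and *Nr1i3* (linear axes from 0) against sampling time, with a point for each of 36 mice and lines through the group means of THRBWT (grey) and THRBKO (blue) livers. The group means of both genotypes are lowest at ZT2 and highest at ZT10 or ZT14 in each panel, and the THRBKO points of *Cyp2a5* at ZT2 and ZT6 lie under all THRBWT points of those times.

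Between genotypes, these 3 genes differed little when sampling time was in the model. The log2 fold change of THRBKO over THRBWT was 0.21 (SE 0.080) for *Por*, 0.08 (SE 0.095) for *Nr1i3* and -0.09 (SE 0.160) for *Cyp2a5*. All THRBKO mice were above all THRBWT mice in *Por* at 3 of 6 times (ZT2, ZT14 and ZT22), while 0.678% of all tested genes were above in this way at 3 or more times. The direction of *Cyp2a5* rested on single mice: without mouse b of THRBWT at ZT6, which had 1263 CPM, its log2 fold change was 0.003.

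*Cyp2b9*, *Cyp2b10*, *Cyp2a22*, *Cyp2a4* and *Cyp2b13* were marked instead by differences between mice of the same genotype and time. The SD of log2 CPM around the 12 group means was 2.13 for *Cyp2b9*, wider than for 99.9% of the tested genes. It was 1.32 for *Cyp2a4* (99.6%), 1.15 for *Cyp2b10* (99.4%), 1.10 for *Cyp2b13* (99.3%) and 1.06 for *Cyp2a22* (99.2%). *Por* (0.23), *Nr1i3* (0.33) and *Cyp2a5* (0.44) lay at percentiles 46.1, 58.4 and 69.6 of all tested genes. Few counts widen such a spread by themselves. Among the 12641 genes with a mean of at least 1 CPM, *Cyp2b9* was at percentile 99.9, *Cyp2a4* at 99.6, *Cyp2b10* at 99.5 and *Cyp2a22* at 99.3. The SD of *Cyp2b9* was 2.24 within THRBWT and 2.01 within THRBKO livers, and 1.93 without the 3 libraries that stood apart. Without these libraries it was 1.10 for *Cyp2b10*, 0.93 for *Cyp2a4*, 0.84 for *Cyp2a22* and 0.44 for *Cyp2b13*. *Cyp2b13* reached the count minimum only through 1 of them, so nothing is read from its rank.

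*Cyp2b9*, a P450 gene that male mouse liver normally holds at a low level, was counted in 34 of 36 livers. At ZT2 the THRBWT mice had 0.0319, 0.293 and 1.23 CPM and the THRBKO mice 0.653, 1.06 and 14.2 CPM. At ZT6 they had 0.274, 9.21 and 0.105 CPM and 2.48, 14.2 and 6.14 CPM. At ZT10 they had 7.63, 0.124 and 3.08 CPM and 76.0, 1.78 and 1.79 CPM. In these first 3 times the genotypes overlapped. At ZT2 and ZT6 a single THRBWT mouse (1.23 and 9.21 CPM) reached into the THRBKO range. At ZT10, THRBWT mice with 7.63 and 3.08 CPM lay above THRBKO mice with 1.78 and 1.79 CPM. At ZT14 the THRBWT mice had 0.253, 0.484 and 0.937 CPM and the THRBKO mice 4.84, 4.95 and 5.96 CPM. At ZT18 they had 0.316, 0 and 1.58 CPM and 8.13, 1.15 and 3.29 CPM. At ZT22 they had 0, 0.384 and 0.229 CPM and 4.03, 97.2 and 7.85 CPM. From ZT14 on, the genotypes were apart at ZT14 and ZT22 and overlapped at ZT18. Of all tested genes, 4.03% had all THRBKO mice above all THRBWT mice at 2 or more of 6 times. Both zeros were in THRBWT mice, and a count of 0 allows up to 0.0974 CPM there (a floor of 3 counts, for counting error only). The 2 highest THRBKO mice carried 60.8% of all *Cyp2b9* counts of the 36 libraries.

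*Cyp2b10*, the standard readout of CAR activity, ranged from 0.932 to 15.0 CPM in THRBWT livers with a median of 3.46, and from 1.38 to 35.4 CPM in THRBKO livers with a median of 8.30. Mouse b of THRBWT at ZT6 held the THRBWT maximum, and the other mice of that group had 1.13 and 1.42 CPM. Mouse b of THRBKO at ZT22 was the highest of all, followed by mouse a of THRBKO at ZT14 with 29.3 CPM. All THRBKO mice lay above all THRBWT mice at ZT14 and ZT22. *Cyp2a22*, a little described member of the Cyp2a subfamily, ranged from 0.369 to 4.45 CPM in THRBWT and from 0.589 to 18.1 CPM in THRBKO livers. Its highest mice were the same as those of *Cyp2b9*, with 18.1 CPM in mouse b of THRBKO at ZT22 and 11.5 CPM in mouse a at ZT10, and with 4.45 CPM in mouse b of THRBWT at ZT6. It too was without overlap at ZT14 and ZT22. All THRBKO mice were above all THRBWT mice at 2 or more of 6 times for 4.03% of all tested genes. The genes were chosen on this contrast, so nothing is read from the lack of overlap. Sampling time was not called for *Cyp2b9* (adjusted p = 0.296 in THRBWT and 0.179 in THRBKO livers) or for *Cyp2b10* (0.907 and 0.125, edgeR). Without mouse a of THRBKO at ZT10 the adjusted p of *Cyp2b10* in THRBKO livers was 0.0386, and with no filter on low counts it was 0.0215 for *Cyp2b10* and 0.0423 for *Cyp2b9*.

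*Cyp2b13* was close to undetected. The 36 libraries held 109 counts of it in all, of which 88 were in mouse a of THRBKO at ZT10 and 9 in mouse b of THRBKO at ZT22. In 29 livers its count was 0, which allows up to 0.0705 to 0.103 CPM depending on the library. The reads that marked it thus came from the mice with the most *Cyp2b9*, its neighbour with a nearly identical promoter. Its call for sampling time in THRBKO livers (adjusted p = 0.0160, edgeR) rested on mouse a at ZT10: without this library the gene no longer reached the count minimum.

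**Figure D2:**
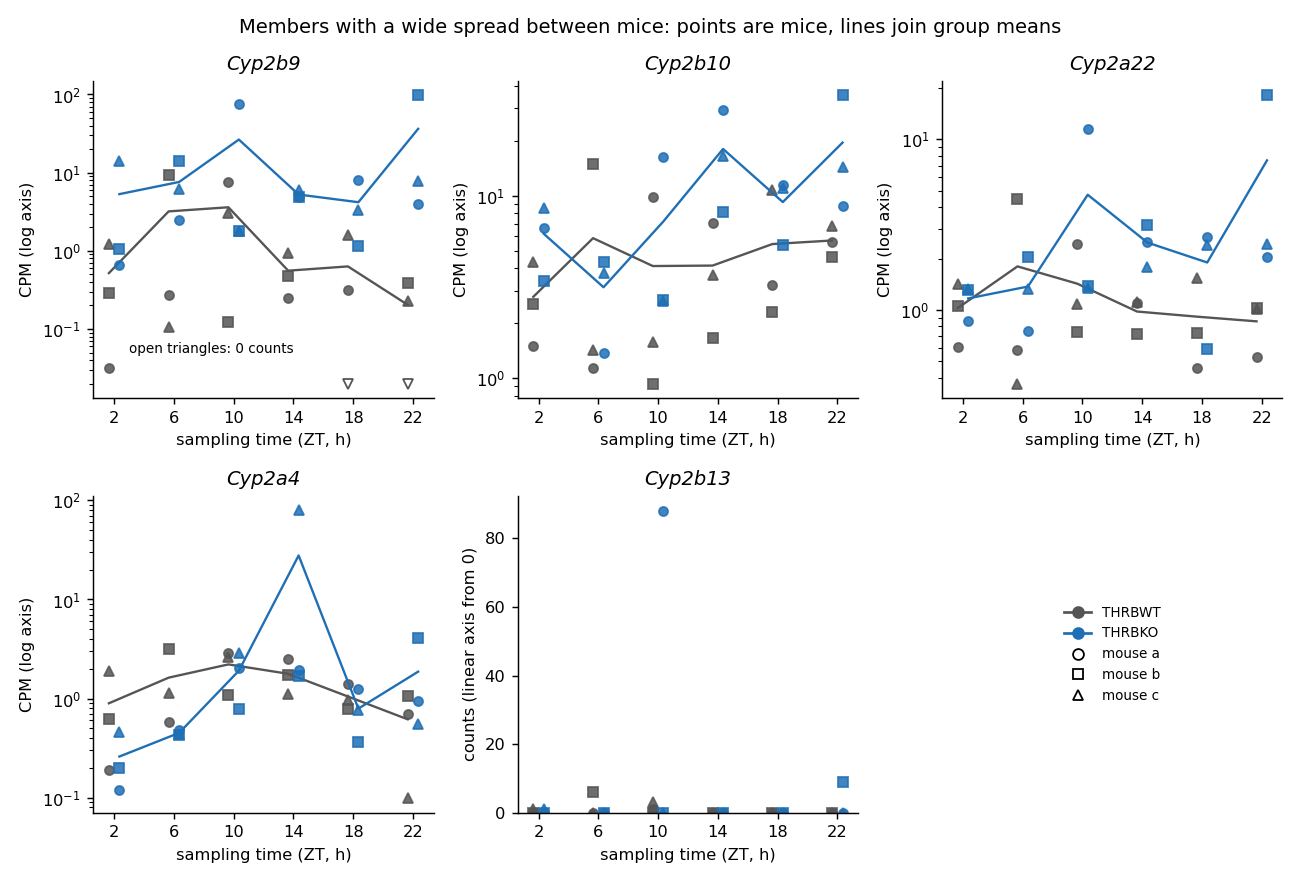
CPM of *Cyp2b9*, *Cyp2b10*, *Cyp2a22* and *Cyp2a4* (log axes) and counts of *Cyp2b13* (linear axis from 0) against sampling time, with a point for each mouse, its letter as the symbol, and lines through the group means in CPM. Open triangles at the lower edge are the 2 livers with 0 counts of *Cyp2b9*. Single THRBKO mice at ZT10, ZT14 and ZT22 pull their group means upward, and the THRBKO points of the first 3 panels lie above the THRBWT points at ZT14 and ZT22. Such a lack of overlap at 2 or more of 6 times was found for 4.03% of all tested genes.

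Of the widely spread genes, *Cyp2b9*, *Cyp2b10* and *Cyp2a22* varied together most closely from mouse to mouse. Over the deviations of the 36 mice from their group means, Pearson's r was 0.85 between *Cyp2b9* and *Cyp2a22*, 0.81 between *Cyp2b10* and *Cyp2a22* and 0.80 between *Cyp2b9* and *Cyp2b10*. *Cyp2b13*, at 0 in most livers, had r between 0.59 and 0.74 with these 3. The link of *Cyp2a4* was looser, with r of 0.44 with *Cyp2b9*, 0.36 with *Cyp2b10*, 0.32 with *Cyp2a22* and 0.29 with *Cyp2b13*. Without the 3 libraries that stood apart these were 0.55, 0.44, 0.45 and 0.54. Within THRBWT livers the 3 pairs of *Cyp2b9*, *Cyp2b10* and *Cyp2a22* had r from 0.78 to 0.89, within THRBKO livers from 0.78 to 0.88, and without the 3 libraries that stood apart from 0.74 to 0.80. The points share library depth, and mice of a group share a mean. *Nr1i3* itself had r from -0.21 to 0.25 with the other 7 genes, and its r with *Cyp2b10* was -0.14. Within a genotype the sign of its r changed, from -0.39 in THRBWT to 0.25 in THRBKO livers with *Cyp2b10*, from -0.35 to 0.29 with *Cyp2b9* and from -0.52 to 0.40 with *Cyp2a22*. Without the 3 libraries that stood apart these were -0.29, -0.22 and -0.38 over both genotypes, and the difference between genotypes was not tested.

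*Cyp2a4*, *Cyp2a5* and *Por* varied together as well. *Cyp2a4* and *Cyp2a5* had r = 0.65 over the 36 mice, and *Por* had r = 0.50 with *Cyp2a4* and 0.49 with *Cyp2a5*. Without the 3 libraries that stood apart these were 0.74, 0.50 and 0.50. *Nr1i3*, which had a daily course too, had r = 0.25 with *Por*, 0.17 with *Cyp2a5* and -0.21 with *Cyp2a4*. With *Cyp2b9*, *Cyp2b10* and *Cyp2a22*, *Cyp2a5* had r of only 0.12 to 0.15. In all, 8 of the 28 pairs of these genes had r of at least 0.5. Among them are the pairs of *Cyp2b13* with *Cyp2b9*, *Cyp2b10* and *Cyp2a22*, although *Cyp2b13* reached the count minimum only through 1 library. The share over all pairs of genes was not computed, so nothing is read from this count.

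**Figure D3:**
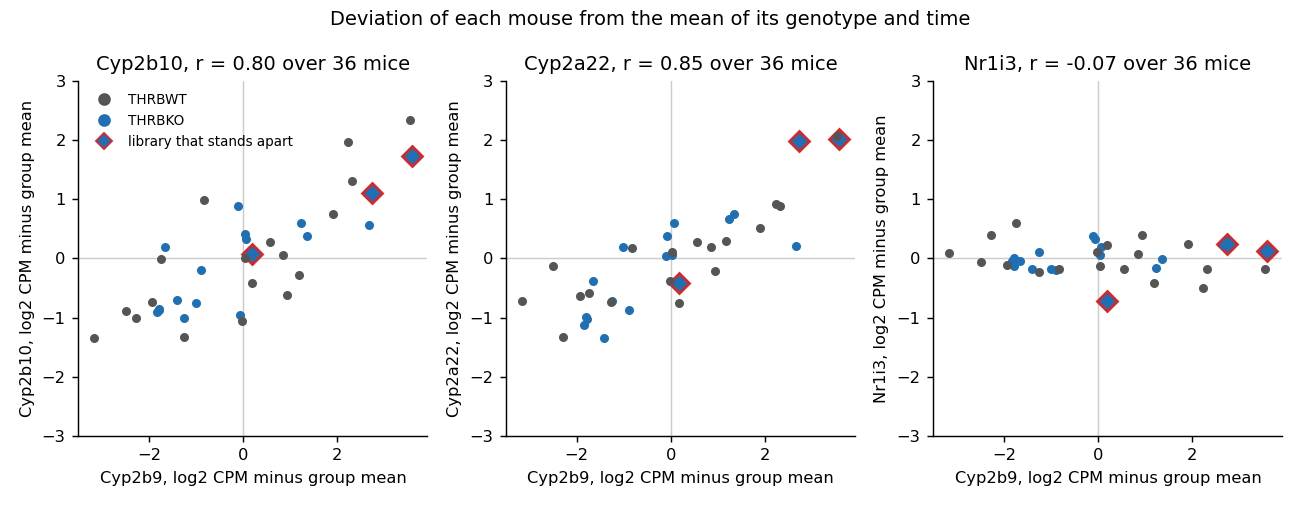
Deviation of log2 CPM of each mouse from the mean of its genotype and time, for *Cyp2b10*, *Cyp2a22* and *Nr1i3* against *Cyp2b9*, with THRBWT in grey, THRBKO in blue and the 3 libraries that stood apart as outlined diamonds. *Cyp2b10* and *Cyp2a22* rise along with *Cyp2b9* in both genotypes (r = 0.80 and 0.85), while *Nr1i3* has r = -0.35 with it in THRBWT and 0.29 in THRBKO livers (-0.07 over both).

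The genes most like each of these 8 were sought among the 12641 genes with a mean of at least 1 CPM, by r of the deviations over 36 mice. The highest r of so many genes is raised by the search itself, and the level it would reach by chance was not tested. Next to *Cyp2b9* stood *Cyp2a22*, *Vldlr* (r = 0.84), the receptor of very low density lipoprotein, and *Hamp2* (r = 0.82), a hepcidin gene. Next to *Cyp2b10* stood *Sult1a1* (r = 0.82), a sulfotransferase of phenolic compounds, followed by *Cyp2a22* and *Cyp2b9*. *Cyp2a22* had *Cyp2b9*, *Cyp2b10* and *Sult1a1* (r = 0.77) as its nearest genes, and *Cyp2b13* had *Cyp2a22*, *Cyp2b9* and *Adam11* (r = 0.68). Without the 3 libraries that stood apart, r was 0.86 for *Vldlr* and 0.81 for *Hamp2* with *Cyp2b9*, 0.81 for *Sult1a1* with *Cyp2b10* and 0.53 for *Adam11* with *Cyp2b13*.

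Other genes stood next to the remaining members. *Cyp2a5* was most like *Hsd17b6* (r = 0.73), *Serpina6* (r = 0.72), which encodes the carrier of corticosteroids in blood, and *Cpeb1* (r = 0.70). *Por* was most like *Klhl3* (r = 0.68), *Serpina6* (r = 0.67) and *Ndel1* (r = 0.66). *Cyp2a4* stood next to the carboxylesterase gene *Ces2a* (r = 0.75), to *Kng2* (r = 0.73) and to *Ano8* (r = 0.72), and without the 3 libraries that stood apart these were 0.71, 0.60 and 0.49. *Nr1i3* stood next to *1810058I24Rik* (r = 0.77), *Cfap20* (r = 0.76) and *Tmem131l* (r = 0.73), none of which was among the 3 nearest genes of any other of the 8. Without those libraries the values for *Cyp2a5*, *Por* and *Nr1i3* lay between 0.65 and 0.76.

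*Cyp2a4* was decided by a single mouse. Mouse c of THRBKO at ZT14 held 3560 counts (79.7 CPM), 70.3% of all *Cyp2a4* counts, and the other mice of its group had 1.94 and 1.71 CPM. In the other 35 livers *Cyp2a4* lay between 0.0982 and 4.11 CPM. The same mouse had the highest *Cyp2a5* of all livers (1955 CPM) and the highest *Por* (880 CPM). Set against its near-identical copy, *Cyp2a4* had 40.8 counts per 1000 *Cyp2a5* counts in this mouse and a median of 1.19, with a range of 0.413 to 7.17, in the other 35. What share of the *Cyp2a4* counts comes from *Cyp2a5* reads was not tested. Over the other 35 livers the deviations of both genes still had r = 0.70.

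The daily course of *Cyp2a4* in THRBKO livers had an adjusted p of 1.07e-05 (edgeR), and in THRBWT livers of 0.688. Without mouse c at ZT14 the adjusted p in THRBKO livers was 0.0271, and without the 3 libraries that stood apart it was 0.0469. Without the mice of letter c it was 0.0562 by the same test. In the other livers *Cyp2a4* was lowest at ZT2 in THRBKO mice, with 0.119, 0.198 and 0.462 CPM. Reads of *Cyp2a5*, which varied with sampling time itself, may be among these few counts, and their part in the course was not tested. The interaction of genotype and sampling time had an unadjusted p of 0.00386 and an adjusted p of 1 for this gene.

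**Figure D4:**
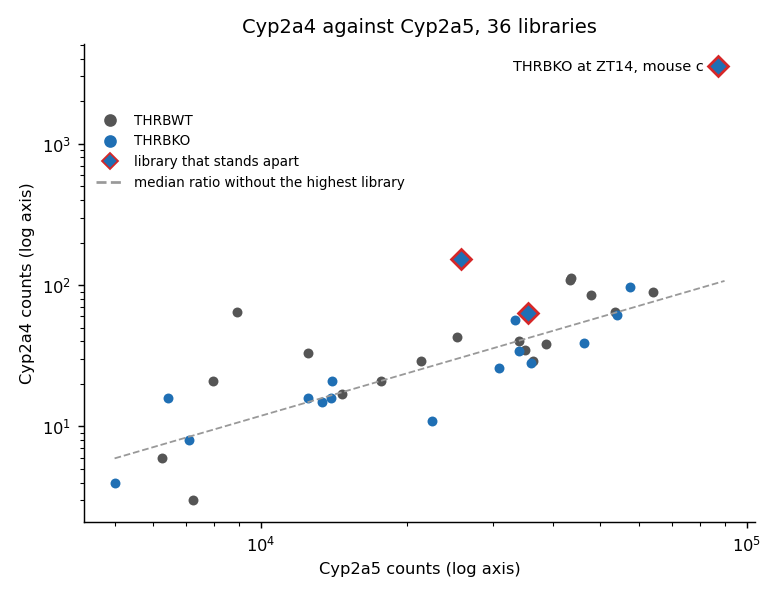
Counts of *Cyp2a4* against counts of *Cyp2a5* (log axes) in 36 libraries, with THRBWT in grey, THRBKO in blue, the 3 libraries that stood apart as outlined diamonds and the median ratio of the other 35 libraries as a dashed line. Mouse c of THRBKO at ZT14 lies far above the line with 3560 *Cyp2a4* counts, at 40.8 per 1000 *Cyp2a5* counts.

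The differences between genotypes helped to choose these genes and are given as a description. With sampling time in the model, *Cyp2b9* had 1.45 ± 2.66 CPM (SD, n = 18) in THRBWT and 14.2 ± 26.9 CPM (SD, n = 18) in THRBKO livers, a log2 fold change of 3.17 (SE 0.675). Of the 8 genes, 1 (*Cyp2b9*) was past the threshold of edgeR's test as higher and 0 as lower in THRBKO livers, while 0.506% of all tested genes were called higher and 0.445% lower. The genes were chosen on this contrast, so nothing is read from that count. It was 0 without mouse a of THRBKO at ZT10 and 0 without the 3 libraries that stood apart. Without mouse b of THRBWT at ZT6, *Cyp2b9*, *Cyp2b10* and *Cyp2a22* were past the threshold. The mean of *Cyp2b9* was higher in THRBKO livers at 6 of 6 times. Without mouse a of THRBKO at ZT10 its log2 fold change was 2.72, and without the 3 libraries that stood apart it was 2.31. Without any other single library the log2 fold change of *Cyp2b9* lay between 2.82 and 3.84.

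*Cyp2a22* had 1.17 ± 0.952 CPM (SD, n = 18) in THRBWT and 3.20 ± 4.43 CPM (SD, n = 18) in THRBKO livers, a log2 fold change of 1.19 (SE 0.387). *Cyp2b10* had 4.66 ± 3.91 CPM (SD, n = 18) and 10.5 ± 9.25 CPM (SD, n = 18), a log2 fold change of 0.99 (SE 0.376). For both, the higher value belonged to THRBKO livers at 5 of 6 times. A THRBWT mouse weighed on both values: without mouse b at ZT6 the log2 fold change was 1.52 for *Cyp2a22* and 1.32 for *Cyp2b10*. Without the 3 libraries that stood apart it was 0.59 for *Cyp2a22* and 0.63 for *Cyp2b10*. For sampling time in THRBKO livers *Cyp2a22* had an adjusted p of 0.0470 (edgeR). It passed in 6 of 14 alternatives, which gave adjusted p-values from 0.00451 to 0.642. Among the 8 in which it did not pass were those without mouse c of THRBKO at ZT14 (0.0600), without mouse b of THRBKO at ZT22 (0.227) and without the 3 libraries that stood apart (0.642).

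*Cyp2a4* had a log2 fold change of 0.36 (SE 0.579), and of -0.37 without mouse c of THRBKO at ZT14. *Cyp2b13* had 2.35 (SE 1.12), a value that rests on the 88 counts of mouse a of THRBKO at ZT10 and could not be fitted without this library.

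**Figure D5:**
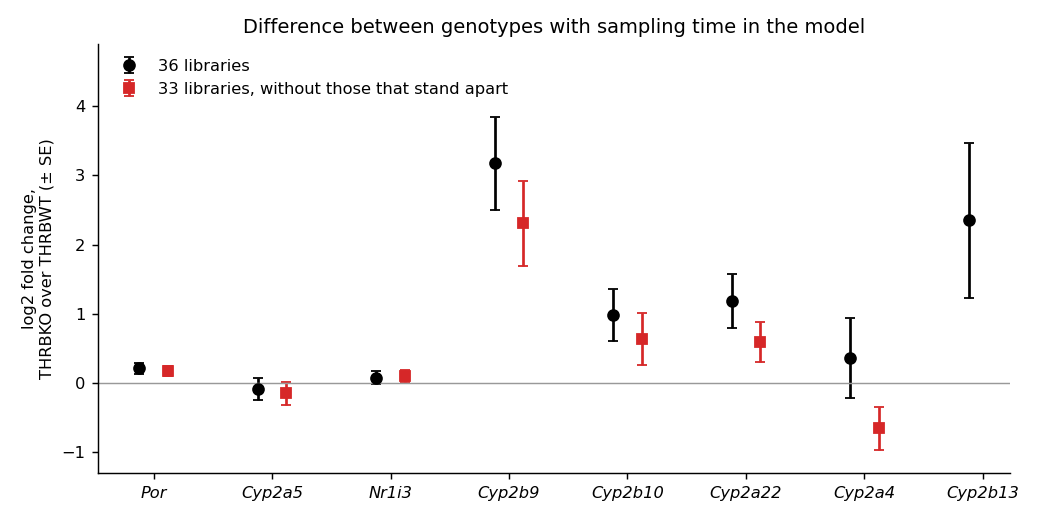
Log2 fold change of THRBKO over THRBWT livers with its SE for the 8 genes, with sampling time in the model, over 36 libraries (black) and without the 3 that stood apart (red; *Cyp2b13* is then untested). *Por*, *Cyp2a5* and *Nr1i3* lie near 0, *Cyp2b9* falls from 3.17 to 2.31, and *Cyp2a4* passes from above to below 0.

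Genes that act with CAR were set beside it. Of 16 partners and regulators of CAR, 1 was called higher and 0 lower in THRBKO livers, against 0.506% and 0.445% of all tested genes, with a median log2 fold change of 0.02 against -0.001 over all tested genes. The 1 was *Foxo1* (log2 fold change 0.19, SE 0.043, adjusted p = 0.0215, edgeR), a forkhead factor of the insulin pathway known to bind CAR. Of the 16, 8 varied with sampling time in THRBWT and 8 in THRBKO livers, against 26.4% and 24.9% of all genes. Among them the chaperone genes *Hsp90aa1* (adjusted p = 1.24e-08 in THRBWT livers) and *Hsp90ab1* (3.98e-08), whose products hold CAR in the cytoplasm, had the lowest p-values by edgeR.

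Of 21 other genes that CAR is known to induce, 20 were tested, 2 were called higher and 0 lower in THRBKO livers (0.506% and 0.445% of all genes), with a median log2 fold change of 0.09. *Cyp2c29*, a P450 of fatty acid and drug oxidation, had 1193 ± 134 CPM (SD, n = 18) in THRBWT and 1452 ± 189 CPM (SD, n = 18) in THRBKO livers, a log2 fold change of 0.28 (SE 0.061, adjusted p = 0.0116, edgeR). *Gstt1*, a glutathione transferase gene, had 294 ± 41.4 and 362 ± 50.3 CPM (SD, n = 18 each), which made a log2 fold change of 0.30 (SE 0.067, adjusted p = 0.0175, edgeR). The mean deviation of this list from the group means had r of 0.68 with *Cyp2b9*, 0.67 with *Cyp2b10* and 0.75 with *Cyp2a22* over 36 mice, and 0.62, 0.62 and 0.71 without the 3 libraries that stood apart. With *Nr1i3* it had r = 0.05, and -0.03 without those libraries. *Alas1*, the first enzyme of heme synthesis, which every P450 needs, varied with sampling time in THRBWT (adjusted p = 0.00785) and THRBKO livers (0.00749, edgeR), as did the canalicular transporter gene *Abcc2* (1.18e-04 and 1.07e-04). Of 6 genes of electron transfer and heme supply, *Alas1* among them, 0 were called for genotype, against 0.95% of all genes. In each genotype 3 of them varied with sampling time, against 26.4% of all genes in THRBWT and 24.9% in THRBKO livers.

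The PAR bZIP factor genes *Dbp*, *Tef* and *Hlf* and their antagonist *Nfil3* all varied with sampling time in both genotypes. Of all genes, 26.4% did so in THRBWT and 24.9% in THRBKO livers. Between genotypes 0 of these 4 were called, against 0.95% of all genes. *Dbp* had an adjusted p for sampling time of 8.14e-12 in THRBWT and 6.08e-12 in THRBKO livers (edgeR), and *Hlf*, the weakest, of 3.13e-04 and 0.00259. Their mean deviation from mouse to mouse had r = 0.34 with *Nr1i3*, 0.31 with *Por*, 0.18 with *Cyp2a5*, -0.05 with *Cyp2a4* and -0.45 with *Cyp2b9*, and without the 3 libraries that stood apart 0.50, 0.40, 0.18, -0.13 and -0.55. Of the 7 other genes of the Cyp2 cluster on chromosome 7, 5 were tested, with a median log2 fold change of -0.13. Of them 0 were called between genotypes, against 0.95% of all genes. *Cyp2a12*, with 451 ± 35.0 CPM (SD, n = 18) in THRBWT and 414 ± 42.0 CPM (SD, n = 18) in THRBKO livers, and *Cyp2f2*, a P450 of periportal hepatocytes, with 1154 ± 117 and 1047 ± 165 CPM (SD, n = 18 each), lie among these genes and had adjusted p-values of 0.127 and 0.371 for genotype by edgeR.

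Because *Cyp2b9*, *Cyp2b13* and *Cyp2a4* are known as female-biased genes, other sex-biased genes of liver were set beside them in these males. Of 15 tested female-biased genes of 21 listed, 1 was called higher and 0 lower in THRBKO livers, against 0.506% and 0.445% of all genes. A positive log2 fold change was found for 12 of the 15, with a median of 0.71 against -0.001 over all tested genes. The 1 was *Abcd2*, a peroxisomal fatty acid transporter gene, with 15.5 ± 8.83 CPM (SD, n = 18) in THRBWT and 32.2 ± 14.8 CPM (SD, n = 18) in THRBKO livers (log2 fold change 1.07, SE 0.180, adjusted p = 5.86e-04, edgeR). Of 19 male-biased genes, 0 were called higher and 1 lower, *Cyp4a12b* with 92.7 ± 24.1 and 60.5 ± 23.7 CPM (SD, n = 18 each, log2 fold change -0.61, SE 0.158, adjusted p = 0.0498, edgeR). The list had a median log2 fold change of -0.315. The female-biased genes *Cyp2c40* (log2 fold change -0.58) and *Cyp2c69* (-0.84) had negative values, with adjusted p-values of 0.476 and 0.386 by edgeR.

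From mouse to mouse, the male-biased list moved against the widely spread P450 genes. Its mean deviation had r of -0.65 with *Cyp2b9*, -0.48 with *Cyp2b10*, -0.65 with *Cyp2a22* and -0.70 with *Cyp2a4* over 36 mice, and -0.68, -0.47, -0.71 and -0.60 without the 3 libraries that stood apart. The female-biased list had r of 0.56 with *Cyp2b9*, 0.51 with *Cyp2b10*, 0.69 with *Cyp2a22* and 0.49 with *Cyp2a4*, and of 0.46, 0.45, 0.58 and 0.52 without these libraries. Measured from its own group mean, mouse b of THRBKO at ZT22 had the lowest mean deviation in male-biased genes, -1.23 on the log2 scale. It also had the highest in female-biased genes, with 1.10. Mouse b of THRBWT at ZT6 came next in deviation on both lists, with -0.95 and 0.75. Mouse c of THRBKO at ZT14 had -0.75 and 0.08, and mouse a of THRBKO at ZT10 had -0.14 and 0.28. The order differed in summed level of the female-biased list, where mouse c of THRBKO at ZT14 was highest with 111 CPM. There mouse b of THRBKO at ZT22 had 104 CPM and mouse b of THRBWT at ZT6 had 62.6 CPM. The part of these lists in the differences between genotypes was not tested.

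Markers of other liver cells and zones were measured beside these results. Tested were 8 pericentral, 6 periportal, 5 cholangiocyte, 5 Kupffer cell, 4 sinusoidal endothelial, 5 stellate cell and 3 lymphocyte markers. Of these, 0 were called between genotypes, against 0.95% of all tested genes. At so low a share, 0 calls among so few markers says little. Summed Kupffer cell markers ranged from 125 to 384 CPM in THRBWT and from 132 to 257 CPM in THRBKO livers. Summed cholangiocyte markers ranged from 34.2 to 63.6 and from 27.2 to 51.4 CPM, and had r of 0.40 with *Cyp2b9*, 0.42 with *Cyp2b10* and 0.43 with *Cyp2a22* as mean deviations over 36 mice (0.33, 0.37 and 0.33 without the 3 libraries that stood apart). The pericentral list, which marks the zone where CAR targets are known to be highest, had r of -0.27 with *Cyp2b9* and -0.25 with *Cyp2b10*, and 0.48 with *Nr1i3* (-0.33, -0.26 and 0.35 without these libraries). Their part in the results was not tested.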

How the data were processed

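Poly-A selected, non-directional RNA libraries of 36 livers were read as pairs. The authors removed low-quality reads, mapped the rest to GRCm38 with HISAT2, counted them per gene with featureCounts and deposited whole-number counts without normalization (tools and build per the labels, with no versions). Annotation release and strand setting are not given in the sources used here. The deposited table's gene lengths were used for levels per kb.

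Genes reaching 100 counts in sum over all libraries were scaled by TMM and tested by edgeR 4.0.16 (glmQLFit, glmQLFTest, limma 3.58.1, R 4.3.3), with sampling time and genotype as factors, or with 12 group means for time and interaction. P-values were adjusted by Benjamini-Hochberg over all tested genes, at a threshold of 0.05. Log2 CPM used a prior count of 2. DESeq2 1.42.0, other filters and libraries left out served as alternatives. Transcripts were aligned by BLAST 2.17.0 and figures drawn in Python 3.11.15. Libraries of a group differed by more than sampling noise.

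The 8 genes and all gene lists were chosen with earlier results of these data known. Named beside them are, per list, up to 4 genes called for genotype with the largest change (or the 2 with the lowest p), up to 3 with the lowest p for time in THRBWT livers, and the 3 genes most like each of the 8, and of these the text gives a selection. Libraries that stood apart were named after their values were seen.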

Additional observations from a re-analysis of the deposited data

How the results depend on the processing

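Between genotypes, 171 genes were called in the analysis as reported, 315 by the Wald test and 306 by the likelihood ratio test of DESeq2, 65 with sampling times pooled, 40 to 81 without the mice of 1 letter, 143 to 188 without single libraries that stood apart, and 387 with a replicate block for mice of the same time and letter. Of the 8 genes, 1 was called as reported and 3 with the replicate block (*Cyp2b9*, *Cyp2b10* and *Cyp2a22*). The count was 0 without the 3 libraries that stood apart or without mouse a of THRBKO at ZT10. It was 0 to 1 without the mice of 1 letter. Without mouse b of THRBWT at ZT6, *Cyp2b9*, *Cyp2b10* and *Cyp2a22* were called too. In log2 CPM of *Cyp2b9* this mouse lay 3.54 above its group mean. Mouse a at ZT10 and mouse b at ZT22 of THRBKO lay 3.58 and 2.73 above theirs. The libraries that stood apart were all THRBKO, so leaving them out changes the THRBKO side only. Mice of the same time and letter had deviations with r from -0.0611 to 0.395, over 0.1 in 16 of 18 pairs. In 16 of 18 pairs a mouse was most like its own letter. The deposited column headers also carry numbers, which are consecutive for some mice of the same time and letter. What these numbers stand for is not given, and no label says that the letters pair mice. The log2 fold change of *Cyp2a4*, 0.36 as reported, was -0.078 with the replicate block, -0.40 without letter c, -0.37 to 0.59 without single libraries and -0.66 without the 3 libraries that stood apart. That of *Cyp2a5*, -0.09 as reported, was -0.199 to 0.038 without the mice of 1 letter and 0.003 without mouse b of THRBWT at ZT6.

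For sampling time, leaving out the mice of 1 letter left 2193 to 2716 genes in THRBWT and 1913 to 2316 in THRBKO livers, from 4748 and 4479, with fewer mice in each fit. Without single libraries, 4005 to 4489 genes were called in THRBKO and 4277 to 4854 in THRBWT livers. Of the 8 genes, 3 to 6 were called in THRBKO livers in these fits. Of the 28 pairs of genes, 13 had r of at least 0.5 within THRBWT livers, from 8 as reported. Both counts include pairs of *Cyp2b13*, so nothing is read from them. Counts of a few reads limit what can be said of *Cyp2b13* and of *Cyp2b9* in THRBWT livers.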

Other observations

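The 3 THRBKO livers that stood apart differed from the other mice of their groups in other genes as well, given here as values. Mouse b at ZT22 had 6.45 CPM of *Cux2*, a female-biased repressor gene, against a mean of 0.309 in the other mice of its group, and 747 against 63.2 CPM of *Cyp4a14*, a P450 of fatty acid oxidation. It had 0.699 against 213 CPM of *Mup7* and 35.6 against 703 CPM of *Selenbp2*, both known as male-biased genes. Another gene of the Mup family, *Mup14*, went the other way in this mouse, with 323 against 8.22 CPM. Mouse c at ZT14 had 72.1 against 7.30 CPM of *Asns* and 8.20 against 0.862 CPM of *Psat1*, genes of asparagine and serine synthesis, together with 8.53 CPM of *Cux2*, and 4.34 against 63.9 CPM of *Elovl3*. Mouse a at ZT10 had 0.679 against 9.35 CPM of *Asns* and 5.88 against 70.4 CPM of *Gadd45g*. Among THRBWT mice, mouse b at ZT6 had 48.3 CPM of *Asns*, while the others of its group had 4.73 and 13.5 CPM. These genes were chosen after their values were seen, and the 3 livers do not share a direction in *Asns*.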
